A study of Homo sapiens with 12 samples.

Results

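This account follows 7 genes, the interferon-linked ADP-ribosyltransferase family members PARP9, PARP10, PARP12 and PARP14, the ubiquitin ligase DTX3L, and the DNA-damage enzymes PARP1 and PARP2 as members not driven by interferon. They were taken by gene symbol from the deposited tables, where all 7 were present among 27788 symbols with counts. RNA was sequenced from HCT116, a human colorectal carcinoma line, and U-87 MG, a human glioblastoma line, with 3 libraries of GSTO1 knockout (KO) cells and 3 of cells labelled wild type (WT) in each line, which makes 12 libraries. GSTO1 is an omega-class glutathione transferase. Per the labels, cells carrying Cas9 from a lentivirus with an EF1α promoter and blasticidin selection received tracrRNA with a crRNA to exon 2 of GSTO1 or with a crRNA that has no target, and single colonies were then screened for loss of GSTO1. A KO group therefore stands for picked colonies. The labels leave out how many colonies it holds and whether the WT cells received the untargeted crRNA. In every difference between KO and WT cells, loss of GSTO1 therefore cannot be told apart from colony choice or crRNA treatment.

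ADP-ribosyltransferases of the PARP family take ADP-ribose from NAD+ and attach it to proteins or nucleic acids. PARP1 and PARP2 bind DNA breaks and build chains of it that call in repair factors, whereas PARP10, PARP12 and PARP14 attach single units. PARP9 works in a complex with DTX3L, a RING-type ubiquitin ligase of the Deltex family. Type I interferon acts through a transcription factor that binds the interferon-stimulated response element (ISRE), and PARP9, DTX3L, PARP10, PARP12 and PARP14 are known as interferon-induced genes.

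GSTO1 itself was lower in every KO library, at 17.1, 14.6 and 15.7 CPM (counts scaled to library size) in HCT116 KO cells against 63.9, 64.7 and 61.4 CPM in WT cells, and at 25.02, 23.8 and 25.2 CPM in U-87 MG KO cells against 143, 142 and 117 CPM in WT cells. Libraries held between 17814142 and 28097179 counts. Nothing in the labels ties the 3 libraries of a group to separate cultures, and the p-values therefore cover the spread among these libraries alone, which could be technical. U-87 MG WT replicate 3 stood furthest from its group, and PARP14 kept its call without it (given with that gene). EPCAM, an epithelial marker, was at 115 to 130 FPKM (a level scaled to transcript length and library depth) in HCT116 and VIM, a mesenchymal one, at 3090 to 4388 FPKM in U-87 MG. VIL1 was nearly absent from HCT116 (at most 3 counts in a library), and the glial markers GFAP and S100B from U-87 MG (at most 3 counts each). Summed over 5 leukocyte markers, levels were 0.0421 to 0.0712 FPKM in KO and 0.0289 to 0.0501 FPKM in WT HCT116 cells, and 0.272 to 0.531 FPKM in KO and 0.0235 to 0.161 FPKM in WT U-87 MG cells, with CD3E and MS4A1 at 0 counts throughout. Over 5 epithelial markers the sum was 1385 to 1508 FPKM in KO and 1589 to 1651 FPKM in WT HCT116 cells, and over 5 glial or mesenchymal markers 3508 to 3557 FPKM in KO and 4128 to 4783 FPKM in WT U-87 MG cells. Of the sums given here, that of leukocyte markers overlapped between KO and WT in HCT116 and the others did not overlap, and their part in the results was not tested.

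PARP9, DTX3L and PARP14 lie together on chromosome 3 (GRCh38, GENCODE release 44). PARP9 spans 122527924 to 122564577 on the minus strand, DTX3L 122564338 to 122575203 on the plus strand and PARP14 122680839 to 122730840 on the plus strand. PARP12 runs from 140023749 to 140062951 of chromosome 7 (minus strand), PARP1 from 226360210 to 226408154 of chromosome 1 (minus strand) and PARP2 from 20343615 to 20357904 of chromosome 14 (plus strand). RefSeq (GRCh38.p14) promoter windows of 300 bases around an annotated start were taken for 6 of the 7 genes, with 7 windows because PARP9 has 2 starts. PARP10 was left out of this search, so its promoter is not described. One PARP9 start, at 122564300, and the DTX3L start, at 122564338, face away from each other.

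The windows were searched on both strands for an ISRE-like motif, GAAANNGAA (TTCNNTTTC on the other strand), and for a GAS-like motif, TTCNNNGAA, after the gamma-activated site of interferon-responsive promoters. The motifs may overlap, and a match is a description of letters, not evidence of binding. PARP9, DTX3L, PARP12 and PARP14 each held 1 ISRE-like match, and PARP1 and PARP2 held 0. Of all 35116 windows 8.11% held the ISRE-like and 7.66% the GAS-like motif. Counted per gene, the shares were 9.86% and 9.38% of 27305 genes. The match of PARP9 and that of DTX3L are the same 9 bases, 122564332 to 122564340, which lie 40 to 32 bases before the PARP9 start and from 6 bases before to the third base of DTX3L. The farther PARP9 start, at 122564784, had 0 matches. PARP14 also held 1 GAS-like match next to its ISRE-like one, and PARP2 held 1, from 154 to 146 bases before its start. The stretches of DTX3L (which covers the shared PARP9 match), PARP14 and PARP12, 5′ to 3′ along each gene, show where the ISRE-like letters (capitals) sit within the last 110 bases before the start and the first 10 after it.
DTX3L, chr3:122564228-122564347, plus strand: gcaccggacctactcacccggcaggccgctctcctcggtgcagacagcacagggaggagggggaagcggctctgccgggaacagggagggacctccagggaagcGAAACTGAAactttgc
PARP14, chr3:122680729-122680848, plus strand: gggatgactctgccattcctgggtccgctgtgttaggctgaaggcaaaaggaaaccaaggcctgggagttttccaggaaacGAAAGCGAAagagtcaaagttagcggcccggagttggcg
PARP12, chr7:140062942-140063061, minus strand: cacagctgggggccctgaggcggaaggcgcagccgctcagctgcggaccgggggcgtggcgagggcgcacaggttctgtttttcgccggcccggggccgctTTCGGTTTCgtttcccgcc

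**Figure D1:**
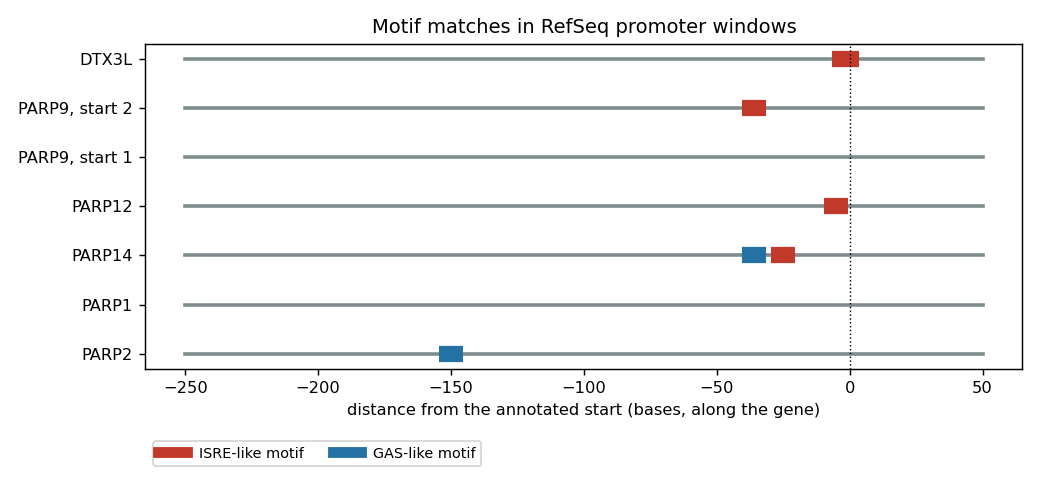
Positions of motif matches in the 7 RefSeq promoter windows, with distance in bases from each annotated start along the gene on the horizontal axis. Red blocks are ISRE-like matches, present in DTX3L, PARP9 (start 2, the one nearer the DTX3L start), PARP12 and PARP14, and blue blocks are GAS-like matches, in PARP14 and PARP2.

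The first comparison asked how the 7 genes differed between KO and WT HCT116 cells. All 5 interferon-linked genes rose and neither PARP1 nor PARP2 passed the call. Calls took 3 conditions together: edgeR's quasi-likelihood test with a Benjamini-Hochberg adjusted p below 0.05, a change of over 1.5-fold and a mean over 0.5 FPKM over the libraries of a line. These are the study's thresholds without its limit to protein-coding genes. By that rule 7.82% of the 14068 genes tested were called higher and 4.07% lower, so the 5 of 7 called higher stand beside the first share. The members were chosen with earlier results of these data known, so this count is a description and no test against that share. The median log2 fold change (KO over WT) was 1.32 over the 7 genes, 1.58 over the 5 and 0.01 over all genes tested. On log2(FPKM + 1) values the 5 were called as well, but among all genes the balance shifted, with 567 higher and 502 lower against 1100 and 572 in the counts.

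PARP10, a mono-ADP-ribosyltransferase, had the largest change of the 7. Its gene runs from 143977153 to 144012772 of chromosome 8 on the minus strand. It was at 18.1, 19.9 and 23.9 CPM in KO cells against 1.36, 1.81 and 2.12 CPM in WT cells. The WT values rest on 33, 47 and 45 counts, and every KO library lay far above them. The log2 fold change was 3.56 (SE 0.15, edgeR adjusted p = 1.05e-13), the 13th highest of the 14068 genes tested. Its size depended on the scale, with 1.98 on log2(FPKM + 1), where a low WT level is compressed, and every fit kept the call. GRINA and SPATC1 lie antisense to 8.64% of the PARP10 exon bases, and whether the counting used strand is not given. GRINA was at 235 to 282 CPM in KO and 172 to 189 CPM in WT HCT116 cells (log2 fold change 0.52), and its part in the PARP10 value was not tested.

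PARP9 had 109, 106 and 97.6 CPM in KO cells against 21.4, 23.5 and 19.9 CPM in WT cells. Its log2 fold change was 2.26 (SE 0.07, edgeR adjusted p = 6.82e-16), the 84th highest. DTX3L, its partner ligase, had 96.0, 92.8 and 90.1 CPM in KO cells against 30.2, 31.5 and 31.7 CPM in WT cells. The log2 fold change of DTX3L was 1.58 (SE 0.06, edgeR adjusted p = 7.9e-15). The 95% interval for PARP9, 2.13 to 2.40, lay above that for DTX3L, 1.46 to 1.69, so these head-to-head genes rose by unequal amounts.

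PARP14, a large macrodomain protein and mono-ADP-ribosyltransferase, had 103.9, 97.3 and 90.9 CPM in KO cells against 38.4, 41.1 and 39.4 CPM in WT cells. Its log2 fold change was 1.29 (SE 0.06, edgeR adjusted p = 5.19e-13). PARP12, a zinc finger mono-ADP-ribosyltransferase, had 56.1, 59.5 and 63.1 CPM in KO cells against 22.4, 24.9 and 24.2 CPM in WT cells, with a log2 fold change of 1.32 (SE 0.07, edgeR adjusted p = 2.76e-12). In both genes every KO library lay well above every WT library.

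PARP1 and PARP2 did not follow. PARP1 had 623, 620.2 and 642 CPM in KO cells against 588, 581 and 598 CPM in WT cells, a log2 fold change of 0.09 (95% interval 0.02 to 0.17, edgeR adjusted p = 0.0284). PARP2 had 72.3, 73.1 and 66.3 CPM in KO cells against 91.8, 93.8 and 87.9 CPM in WT cells, a log2 fold change of -0.37 (95% interval -0.48 to -0.26, edgeR adjusted p = 5.78e-06). Both had adjusted p-values under 0.05 with folds under 1.5, and 57.3% of the tested genes had an adjusted p under 0.05 at any fold. For PARP1 this depended on the fit. Its adjusted p was 0.0608 in DESeq2, 0.322 in limma on log2(FPKM + 1) and 0.145 in edgeR without WT replicate 2. In edgeR with the replicate number as a block it was 7.3e-05. For each of the 7 genes the CPM of KO and WT libraries did not overlap, which was so for 61.6% of all tested genes. In FPKM the PARP1 libraries of the 2 groups did overlap, at 128, 128 and 134 FPKM in KO cells against 126, 124 and 128 FPKM in WT cells.

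**Figure D2:**
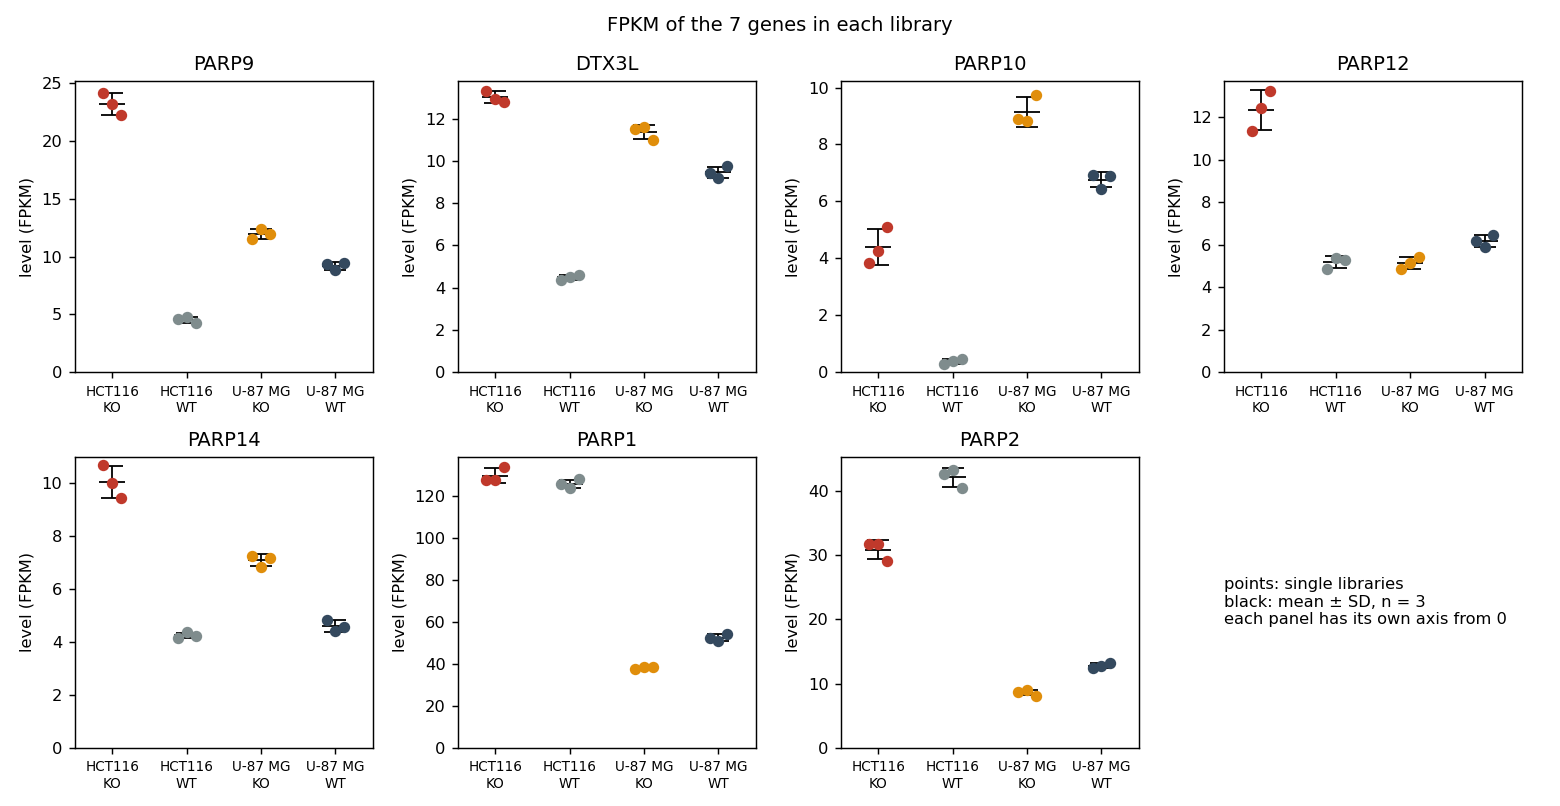
Level in FPKM (vertical axes, linear from 0) of each gene in every library, with points for libraries and black marks for mean ± SD of 3. HCT116 KO libraries lie above all WT libraries of that line for PARP9, DTX3L, PARP10, PARP12 and PARP14, and below them for PARP2.

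The second comparison asked the same in U-87 MG. Of the 7 genes, PARP14 alone was called higher and 0 were called lower, where higher calls made up 8.06% and lower calls 8.15% of the 13741 genes tested. The median log2 fold change was 0.24 over the 7 genes, 0.26 over the 5 interferon-linked ones and 0.01 over all tested. PARP14 had 64.4, 60.7 and 63.0 CPM in KO cells against 43.2, 39.5 and 40.8 CPM in WT cells. Its log2 fold change was 0.61 (SE 0.06, edgeR adjusted p = 5.13e-09), just past the 1.5-fold threshold. Without WT replicate 2 it was 0.57 and on log2(FPKM + 1) 0.53, both under that threshold, and without WT replicate 3 it was 0.601 and still called.

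The PARP9 and DTX3L pair differed by less than 1.5-fold. PARP9 had 45.8, 48.2 and 47.1 CPM in KO cells against 39.9, 36.6 and 41.8 CPM in WT cells (log2 fold change 0.26, edgeR adjusted p = 0.00124). DTX3L had 76.0, 76.0 and 72.0 CPM in KO cells against 63.1, 62.1 and 65.3 CPM in WT cells (log2 fold change 0.24, edgeR adjusted p = 3.93e-04). The upper ends of the 95% intervals, 0.39 and 0.34, stayed below the 1.5-fold threshold, so a change of that size was outside the interval for both genes.

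PARP10 had 36.1, 36.0 and 39.5 CPM in U-87 MG KO cells against 28.6, 26.8 and 28.6 CPM in WT cells, a log2 fold change of 0.41 (95% interval 0.27 to 0.55, edgeR adjusted p = 1.6e-05). PARP12 went the other way, with 21.6, 22.8 and 23.6 CPM in KO cells against 27.4, 26.5 and 28.1 CPM in WT cells, a log2 fold change of -0.27 (95% interval -0.42 to -0.12, edgeR adjusted p = 0.00247). Every KO library lay above every WT library for PARP10 and below for PARP12, with neither gene past 1.5-fold.

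PARP1 had 170.2, 173 and 175 CPM in U-87 MG KO cells against 242, 235 and 247 CPM in WT cells, a log2 fold change of -0.48 (95% interval -0.57 to -0.40, edgeR adjusted p = 7.62e-10). PARP2 had 17.8, 18.0 and 16.1 CPM in KO cells against 25.3, 25.8 and 25.9 CPM in WT cells, a log2 fold change of -0.57 (95% interval -0.72 to -0.41, edgeR adjusted p = 1.15e-06). Both lay below their WT libraries without passing 1.5-fold, although PARP2 was called without KO replicate 1 (-0.59) or without KO replicate 2 (-0.59). An adjusted p under 0.05 at any fold was found for 59.3% of the tested genes. KO and WT libraries did not overlap for any of the 7 genes, as for 64% of all tested genes.

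**Figure D3:**
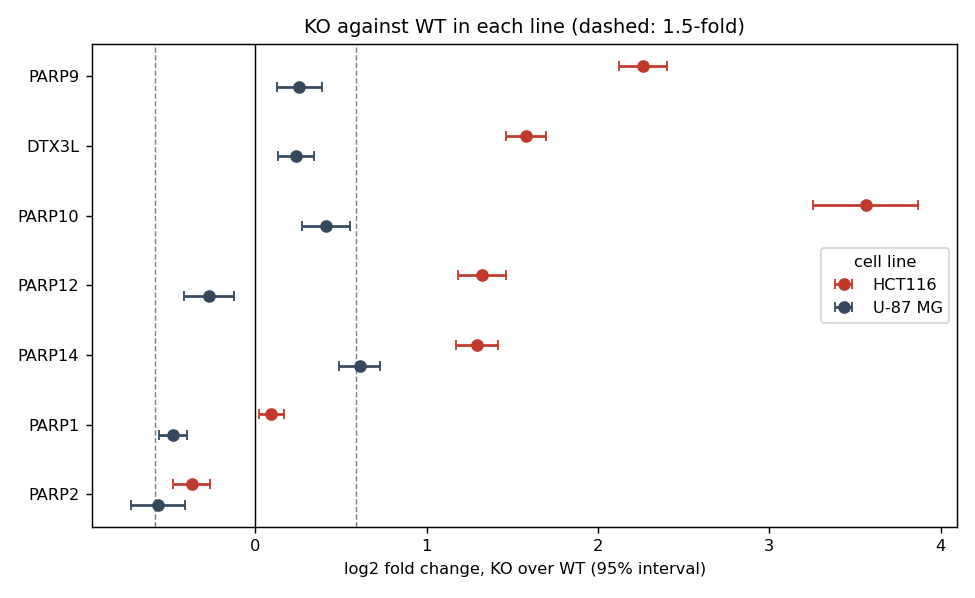
Log2 fold change, KO over WT, of each gene with its 95% interval in HCT116 (red) and U-87 MG (blue), and dashed lines at 1.5-fold. The 5 interferon-linked genes lie at 1.29 to 3.56 in HCT116 and at -0.27 to 0.61 in U-87 MG.

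Whether the change between KO and WT cells differed between the lines was tested as the interaction in 1 fit of all 12 libraries. All 5 interferon-linked genes were called, each with a higher log2 fold change in HCT116 than in U-87 MG. Over all 15613 genes tested, 9.66% were called in that direction. The log2 difference was 3.16 for PARP10 (SE 0.16, edgeR adjusted p = 1.72e-16), 2.02 for PARP9 (SE 0.09, edgeR adjusted p = 6.18e-18) and 1.603 for PARP12 (SE 0.10, edgeR adjusted p = 1.01e-14). It was 1.35 for DTX3L (SE 0.08, edgeR adjusted p = 7.41e-16) and 0.69 for PARP14 (SE 0.08, edgeR adjusted p = 2.41e-08), the smallest of the 5, which was 0.54 and not called on log2(FPKM + 1). PARP1 differed by 0.58 (SE 0.06, edgeR adjusted p = 2.04e-10), a fold of 1.498 that missed the threshold, and passed it without HCT116 KO replicate 1 (0.60), HCT116 KO replicate 2 (0.59) or HCT116 WT replicate 3 (0.59). PARP2 differed by 0.20 (95% interval 0.02 to 0.38, edgeR adjusted p = 0.0642). For PARP10 it was 1.59 on log2(FPKM + 1), still called. At any fold 41.9% of genes had an adjusted p under 0.05.

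The WT cells of the lines started from different levels. Between WT HCT116 and WT U-87 MG cells 5 of the 7 genes were called, as were 55.2% of all genes tested, and the lines were sequenced with single and paired reads, so line and read layout cannot be told apart. PARP10 was lowest relative to U-87 MG, with a log2 fold change of -4.17 (HCT116 over U-87 MG, edgeR adjusted p = 2.78e-24, or -2.51 and still called on log2(FPKM + 1)) and 0.366 ± 0.094 FPKM in HCT116 WT cells against 6.76 ± 0.27 FPKM in U-87 MG WT cells (SD, n = 3 each). DTX3L (-1.20) and PARP9 (-1.04) were also lower in HCT116. PARP1 (1.11) and PARP2 (1.65) were higher there, whereas PARP12 (-0.37) and PARP14 (-0.23) differed by less than 1.5-fold.

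Per unit of length, PARP1 had the highest level of the 7 genes in all 4 groups, at 130 ± 3.65 FPKM in HCT116 KO, 126 ± 2.07 FPKM in HCT116 WT, 38.1 ± 0.52 FPKM in U-87 MG KO and 52.5 ± 1.59 FPKM in U-87 MG WT cells (SD, n = 3 each). In HCT116 KO cells it was followed by PARP2 (30.9 ± 1.47 FPKM), PARP9 (23.2 ± 0.96 FPKM), DTX3L, PARP12, PARP14 and PARP10 (4.402 ± 0.63 FPKM), with overlapping ranges only between DTX3L and PARP12. In HCT116 WT cells PARP2 (42.1 ± 1.46 FPKM) was followed by PARP12, PARP9, DTX3L and PARP14, which all lay between 4.15 and 5.39 FPKM, and by PARP10. Ranges of neighbours overlapped there between PARP9 and DTX3L and between DTX3L and PARP14.

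In U-87 MG KO cells the order after PARP1 was PARP9 (12.0 ± 0.42 FPKM), DTX3L, PARP10, PARP2, PARP14 and PARP12 (5.14 ± 0.30 FPKM), with overlap between PARP9 and DTX3L and between PARP10 and PARP2. In U-87 MG WT cells it was PARP2 (12.8 ± 0.40 FPKM), DTX3L, PARP9, PARP10, PARP12 and PARP14 (4.59 ± 0.21 FPKM), with overlap between DTX3L and PARP9 and between PARP10 and PARP12. Summed FPKM of the 5 interferon-linked genes was 63.0 ± 0.35 in HCT116 KO against 18.8 ± 0.60 in HCT116 WT cells, and 44.7 ± 0.63 in U-87 MG KO against 36.2 ± 1.26 in U-87 MG WT cells (SD, n = 3 each). HCT116 thus had the lower sum of the lines in WT cells and the higher one in KO cells. The KO groups of the lines were not tested against each other, and line and read layout cannot be told apart here either.

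The balance between PARP9 and DTX3L was not the same in KO and WT HCT116 cells. DTX3L over PARP9, as a ratio of FPKM, was 0.551, 0.558 and 0.573 in KO cells against 0.947, 0.952 and 1.09 in WT cells. In U-87 MG it was 0.998, 0.938 and 0.916 in KO cells against 1.01, 1.04 and 1.03 in WT cells. The HCT116 groups stood well apart, and those of U-87 MG did not overlap but lay close. As a ratio of counts the HCT116 groups were also separate (0.876 to 0.923 in KO against 1.34 to 1.59 in WT cells), while those of U-87 MG overlapped (1.53 to 1.66 in KO against 1.56 to 1.70 in WT cells). An exact permutation test of 3 against 3 libraries cannot go below 0.1, so no such test of the ratio was made. The genes overlap head to head, with DTX3L antisense to 1.56% of PARP9 exon bases and PARP9 antisense to 2.41% of DTX3L exon bases.

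**Figure D4:**
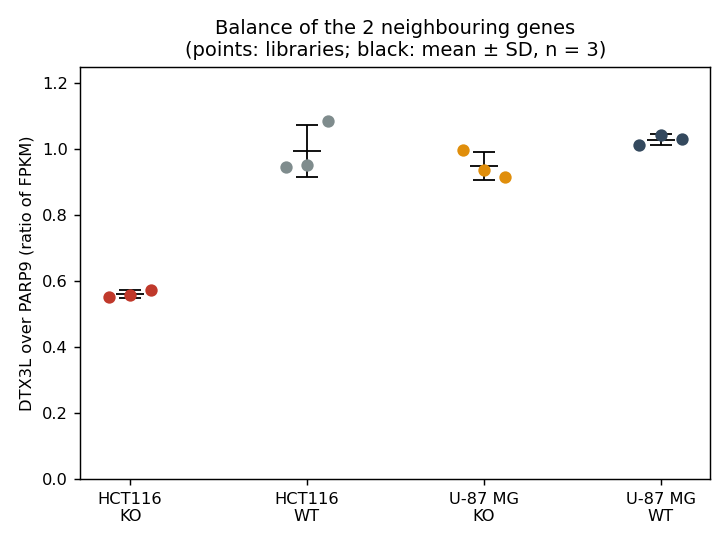
Ratio of DTX3L to PARP9 in FPKM (vertical axis, linear from 0) in each library, with points for libraries and black marks for mean ± SD of 3. HCT116 KO libraries lie between 0.551 and 0.573 and all other libraries between 0.916 and 1.09.

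The genes whose levels followed the 5 most closely were named by the highest Pearson r of log2 CPM over the 12 libraries among 12677 other genes of at least 1 FPKM in a line. These values describe 4 groups more than 12 independent points, since the libraries of a group lie close together. For PARP9 they included HERC6 (r = 0.985) and SAMD9 (0.983), and for DTX3L they were LGALS3BP (0.991), IFIT3 (0.990) and PLD1 (0.989). For PARP12 they were IRF9 (0.993), ATXN1 (0.991) and PLSCR1 (0.979), and for PARP14 IFIT2 (0.988), HERPUD1 (0.985) and HMGA2 (0.982). For PARP10 they were NDRG1 (0.994), DLG4 (0.993) and ABCC3 (0.988). Between members, r was 0.911 for PARP9 with DTX3L, 0.935 for PARP9 with PARP14, 0.316 for PARP10 with PARP12 and 0.979 for PARP1 with PARP2.

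Of 11 other members of the PARP family, 10 were tested in each line. In HCT116, 3 rose and 0 fell, where higher calls made up 7.82% and lower calls 4.07% of all genes, and the median log2 fold change was 0.33 against 0.01 over all genes. They were PARP8 (1.19, edgeR adjusted p = 8.45e-11), PARP4 (0.68, edgeR adjusted p = 1.21e-10), the vault-associated member, and PARP11 (1.07, edgeR adjusted p = 1.58e-05), a mono-ADP-ribosyltransferase. In U-87 MG 0 of 10 were called, with a median of 0.11 and a range of -0.10 to 0.45. There TIPARP (0.45), PARP4 (0.36), PARP8 (0.36) and TNKS (0.26) had adjusted p-values under 0.05 in edgeR's quasi-likelihood test with folds under 1.5. ZC3HAV1, the antiviral zinc finger protein also known as PARP13, had 196, 209.9 and 190.4 CPM in HCT116 KO against 152, 159 and 147 CPM in WT cells (log2 fold change 0.38, edgeR adjusted p = 8.78e-07). The U-87 MG values of ZC3HAV1 were 102, 97.1 and 99.5 CPM in KO against 88.2, 89.7 and 103.6 CPM in WT cells, and there the groups overlapped. PARP15, which lies between DTX3L and PARP14 on chromosome 3, had 0 to 8 counts in every library and was not tested.

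The interferon-stimulated factor and its companions, 12 genes, were tested in both lines. In HCT116 11 rose, all but MX1 (2.06, under the FPKM threshold), and in U-87 MG 4 rose and 1 fell. Over all genes the shares were 7.82% higher and 4.07% lower in HCT116, and 8.06% higher and 8.15% lower in U-87 MG. The gene lists were also chosen with earlier results known, so their counts are descriptions and no tests against these shares. The list's median log2 fold changes were 2.09 in HCT116 and 0.49 in U-87 MG, against 0.01 over all genes in each. Among them STAT2 and IRF9, which act in the factor, rose in HCT116, with log2 fold changes of 1.00 for STAT2 (edgeR adjusted p = 6.56e-12) and 2.12 for IRF9 (edgeR adjusted p = 1.83e-15). The antiviral genes OAS1 (4.84), IFI6 (4.01) and IFIT1 (3.57) were the largest rises of the list there. OAS1 had only 11 to 24 counts a library in HCT116 WT and 24 to 35 in U-87 MG WT cells, which limits its precision. In U-87 MG STAT2 (0.12) and IRF9 (-0.56) differed by less than 1.5-fold. OAS1 (2.88), IFI6 (1.09), ISG15 (0.67), a ubiquitin-like modifier, and IRF7 (0.61) rose in U-87 MG, and USP18, which removes ISG15 from proteins, fell (-1.09, edgeR adjusted p = 1.86e-08). MX1 (1.26) stood under the FPKM threshold in U-87 MG as well. IRF9 had 79.2, 72.0 and 81.9 CPM in HCT116 KO against 17.6, 18.1 and 17.9 CPM in WT cells, and 16.3, 16.1 and 16.9 CPM in U-87 MG KO against 24.4, 22.1 and 26.4 CPM in WT cells, the same opposite directions as PARP12.

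Genes that remove ADP-ribose, 5 of 6 tested in each line, had 0 calls in HCT116 (log2 fold changes -0.25 to -0.07) and 0 in U-87 MG. ADPRH, an ADP-ribosylarginine hydrolase, had the lowest value in U-87 MG (-2.30, edgeR adjusted p = 7.33e-06) but stood under the FPKM threshold. The 8 partners of PARP1 in DNA break repair had 0 calls in either line, with medians of -0.13 in HCT116 and -0.14 in U-87 MG. Among other Deltex ligases, DTX4 fell in HCT116, with 1.78 ± 0.18 CPM in KO against 8.70 ± 0.38 CPM in WT cells (SD, n = 3 each, log2 fold change -2.28, edgeR adjusted p = 6.05e-11), and 2 of 4 were tested in each line. Of 5 tested genes of NAD salvage, NADSYN1, an NAD synthetase, rose in HCT116 (0.81, edgeR adjusted p = 1.56e-09) and 0 were called in U-87 MG. Among all genes tested, 11.9% were called in either direction in HCT116 and 16.2% in U-87 MG. Counts of 0 or 1 in lists this small cannot be told from those shares.

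**Figure D5:**
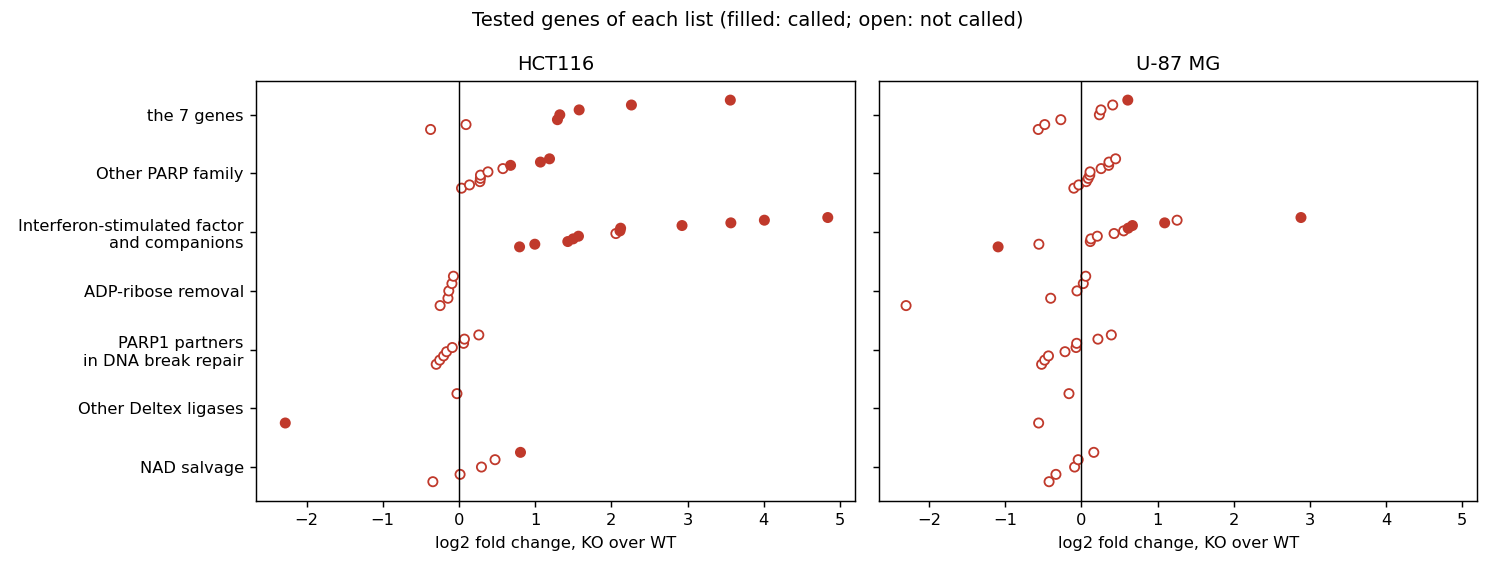
Log2 fold change, KO over WT (horizontal axes), of every tested gene in 7 lists, with HCT116 on the left, U-87 MG on the right, filled points for called genes and open points for the others. In HCT116 the called points lie to the right except DTX4, and in U-87 MG 5 genes of the interferon list and PARP14 are filled.

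The nearest tested protein-coding neighbours beyond the ends of the 7 genes were also counted. Of 10 such neighbours 1 rose and 1 fell in HCT116, TEP1 beside PARP2 (0.74) and ITPKB beside PARP1 (-1.49), and of 8 tested in U-87 MG 1 fell, LIN9 beside PARP1 (-0.62). Against shares over all genes of 7.82% higher and 4.07% lower in HCT116, and 8.15% lower in U-87 MG, counts of 1 among so few neighbours are near the background. Around the chromosome 3 genes, KPNA1 had a log2 fold change of -0.04 in HCT116 and 0.01 in U-87 MG, and HSPBAP1 0.15 in HCT116 and 0.09 in U-87 MG. PLEC, 418 bp from PARP10, had 0.13 in HCT116 and 0.11 in U-87 MG. OPLAH, 38493 bp away on the other side of PARP10, had 0.50 in HCT116 (edgeR adjusted p = 7.05e-05), under 1.5-fold. It was not tested in U-87 MG.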

How the data were processed

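Alignment to GRCh38 used STAR 2.5.2, per the submitters' processing notes. The authors deposited unnormalized counts per gene symbol (featureCounts 1.6.1, per the same notes) and FPKM from Cufflinks 2.2.1 on the refGene annotation, per the labels. Neither the strand setting nor the treatment of multiply aligned reads is given in these sources. Up to 5.74% of a member's stretches of 50 transcript bases occurred in another GENCODE gene.

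Counts were tested with edgeR 4.0.16 in R 4.3.3 (TMM, filterByExpr, glmQLFit with robust estimation), each line alone and all 12 libraries for differences between lines, with Benjamini-Hochberg adjustment over all genes tested. CPM use TMM within a line. SE is the log2 fold change divided by the root of F. Limma 3.58.1 on log2(FPKM + 1 or + 0.1), DESeq2 1.42.0, other filters and scaling, a replicate block and leaving out libraries were alternatives. Scripts were tested on simulated data. Replicate libraries differed by more than sampling noise (chi-square per degree of freedom 1.49 to 9.77, highest for U-87 MG WT replicate 3). In HCT116 KO cells replicate 3 differed from replicates 1 and 2 by 5.82 and 5.65, and these by 1.82 from each other. In HCT116 WT cells the values were 3.77 and 3.58 against 1.49. Members and gene lists were chosen with earlier results of these data known. The text names all 7 members, for each interferon-linked member the 3 genes most alike, and up to 4 called genes of each list by adjusted p. It also names PARP15, ZC3HAV1 and the nearest tested neighbours that were called or lie beside PARP9, DTX3L, PARP10 or PARP14. Names outside this rule, chosen after values were seen, are members of the interferon list beyond 4, MX1, ADPRH, TIPARP, TNKS and the antisense partner GRINA. One gene that the rule names is not reported here.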

Additional observations from a re-analysis of the deposited data

Results flagged for a closer look

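In 5 genes the KO effect, meaning KO against WT cells, differed between HCT116 and U-87 MG by the test of the difference itself. The log2 difference (effect in HCT116 minus effect in U-87 MG) was 2.02 for PARP9, 1.35 for DTX3L, 3.16 for PARP10, 1.603 for PARP12 and 0.69 for PARP14. In that direction 9.66% of all genes tested were called. PARP12 lay above its WT libraries in every HCT116 KO library and below them in every U-87 MG KO library. Its U-87 MG change (log2 fold change -0.27) was not called. KO and WT libraries did not overlap for 61.6% of tested genes in HCT116 and 64% in U-87 MG.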

How the results depend on the processing

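The 5 calls in HCT116 and the 5 between WT lines were made for the same genes under all 15 and 14 alternatives. In U-87 MG the count of called members was 0 on log2(FPKM + 1), with or without an FPKM filter, and 0 to 2 when 1 library was left out (0 without WT replicate 2, 2 without KO replicate 1 or 2); the cause was not tested. The difference between lines had 4 calls on log2(FPKM + 1) and 5 to 6 with 1 library left out. No log2 fold change of the 7 genes changed sign. The FPKM tests called 1069 genes in HCT116, or 1092 without a filter, against 1672 in the counts. With the replicate number as a block the counts were 5 in HCT116, 1 in U-87 MG, 5 for the difference and 5 between WT lines. Deviations of same-numbered KO and WT libraries correlated at 0.086 to 0.292 in HCT116, against -0.191 to 0.123 for different numbers, and at -0.006 to 0.035 in U-87 MG, against -0.031 to 0.025. In neither line did every same-numbered pair pass 0.1 or every library correlate best with its own number, so the libraries were not treated as paired. In HCT116 all 3 same-numbered pairs were positive, and pairing there cannot be told from these values. The highest, 0.292, was replicate 3, which correlated at -0.191 to -0.138 with the other numbers. PARP10 in HCT116 WT cells rests on 33 to 47 counts a library, which limits the precision of its fold.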
